A study of Homo sapiens with 6 samples.

Results

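The MuvB core, its pocket protein and MYB partners and the factor FOXM1 were followed as 10 genes: MYBL1, MYBL2, FOXM1, LIN9, LIN37, LIN52, LIN54, RBBP4, RBL1 and RBL2. They were chosen by gene symbol, with earlier results of these data known, from the 55882 rows of a table of read counts. Each symbol matched 1 row. The study compared p53 KO cells, in which the transcription factor p53 had been knocked out, with p53 WT cells, in 3 libraries of polyadenylated RNA each. Both genotypes were DIvA cells, a U2OS-derived human osteosarcoma line that makes the AsiSI restriction nuclease as a hormone-controlled fusion, and both received 300 nM 4-hydroxytamoxifen (4-OHT) for 5 h, which sends that nuclease to the nucleus to cut DNA. The labels do not say how many knockout clones were used or whether replicates were separate cultures, so p-values weigh the groups against the spread between these 6 libraries. Cells without 4-OHT were not analysed here.

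MuvB is a complex of LIN9, LIN37, LIN52, LIN54 and RBBP4 that sits at promoters of cell cycle genes and changes its partners through the cycle. With the pocket proteins RBL1 (p107) or RBL2 (p130) and an E2F4 or E2F5 dimer it forms the repressor DREAM in quiescent and G1 cells. After G1 the pocket protein leaves, and MYBL2 (B-MYB) and then FOXM1 join MuvB to activate genes of G2 and mitosis. p53 is known to act on this switch through CDKN1A (p21), which inhibits the cyclin-dependent kinases that take DREAM apart.

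The promoter sequences were searched for some forms of the letters that DREAM itself reads. Other forms were not searched. LIN54 binds the cell cycle homology region (CHR, searched as TTTGAA), and E2F dimers bind sites searched here as TTCCCGC, with the variant TTTCGCG and the shorter form TTGGCG, each on both strands over the 250 bases before a RefSeq gene start (GRCh38.p14). From the RefSeq table, 14 starts of 8 of the 10 genes were counted. No start of FOXM1 or MYBL1 is among these, so the counts below leave both genes out. E2F letters stood before 8 of these 14 starts, in 6 genes (MYBL2, LIN9, LIN52, LIN54, RBBP4 and RBL1), and in 13.1% of 35116 promoters in the table. The E2F letters were chosen with the promoters of these genes in view, so no enrichment can be read from these shares. The stretches before the 2 starts of LIN54 overlap, as do those of RBBP4, and share matches. CHR letters stood before 3 of the 14 starts, in LIN37 and LIN54, and in 13.3% of all promoters. The promoters of 4 genes are shown because the genes behind them behaved differently in the counts: MYBL2 was higher in p53 KO cells, LIN52 was lower, and RBL1 and LIN54 were not called. Capitals mark the motif letters, each sequence runs 5′ to 3′ on the strand of its gene and ends at the base before the start. They lie at chr20:43666864-43667113 (plus strand), chr14:74084706-74084955 (plus strand), chr20:37095998-37096247 (minus strand) and chr4:83010824-83011073 (minus strand).
MYBL2: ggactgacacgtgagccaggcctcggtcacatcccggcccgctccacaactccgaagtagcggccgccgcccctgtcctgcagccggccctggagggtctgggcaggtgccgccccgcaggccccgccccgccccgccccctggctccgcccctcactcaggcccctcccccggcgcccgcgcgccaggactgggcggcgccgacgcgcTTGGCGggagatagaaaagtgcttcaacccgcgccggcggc
LIN52: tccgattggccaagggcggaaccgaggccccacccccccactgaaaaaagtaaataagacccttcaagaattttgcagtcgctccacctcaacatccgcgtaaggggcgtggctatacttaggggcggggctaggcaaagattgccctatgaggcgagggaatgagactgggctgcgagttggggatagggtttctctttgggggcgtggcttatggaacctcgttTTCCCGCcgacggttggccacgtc
RBL1: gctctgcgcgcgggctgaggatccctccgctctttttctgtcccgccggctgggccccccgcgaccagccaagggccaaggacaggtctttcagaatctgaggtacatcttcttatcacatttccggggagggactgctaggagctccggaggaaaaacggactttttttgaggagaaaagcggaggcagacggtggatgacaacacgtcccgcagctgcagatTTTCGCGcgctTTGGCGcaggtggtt
LIN54: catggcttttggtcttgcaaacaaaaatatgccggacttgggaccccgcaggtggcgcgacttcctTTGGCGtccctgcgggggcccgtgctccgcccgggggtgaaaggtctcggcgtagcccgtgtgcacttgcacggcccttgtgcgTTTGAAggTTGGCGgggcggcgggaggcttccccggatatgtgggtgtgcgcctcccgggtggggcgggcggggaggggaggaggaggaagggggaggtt

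MYBL2 had 1 E2F match, starting 41 bases before its start, and LIN52 had 1 that began 24 bases before its start. RBL1 had 2, at 26 and 15 bases. LIN54 held 2 E2F matches, at 184 and 92 bases, and a CHR match at 100 bases. The 6 genes with E2F letters included 1 that was higher in p53 KO cells (MYBL2), 2 that were lower (LIN52 and RBBP4) and 3 that were not called. A match is a description of letters and not a measured binding site.

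Total counts were 72621732, 40043686 and 20393909 in p53 KO libraries 1 to 3, and 79767519, 67889247 and 24347609 in p53 WT libraries 1 to 3, and the 10 genes had between 116 (LIN52) and 54483 (FOXM1) counts in a library. CDKN1A averaged 45.8 ± 3.68 CPM (counts scaled to a common library size) in p53 KO cells and 541 ± 26.9 CPM in p53 WT cells (SD, n = 3 each), a log2 fold change of -3.56 (SE 0.10). Of 8 mesenchymal and bone tumour markers, 6 exceeded 1 CPM in some library and COL1A2 and TWIST1 did not. Their summed level was 4055 to 4417 CPM in p53 KO and 7276 to 7710 CPM in p53 WT libraries. Of the 7 tested, 5 were called lower in p53 KO cells and 1 higher. The higher marker was COL1A1 (log2 fold change 0.43, adjusted p = 0.00248 by edgeR). The 8 epithelial markers summed to 19.7 to 28.1 CPM in p53 KO and 9.85 to 16.4 CPM in p53 WT, and 1 of them, CLDN3, stayed under 1 CPM. The 8 leukocyte markers summed to 5.06 to 6.7 CPM in p53 KO and 12.8 to 15.4 CPM in p53 WT, with 6 of 8 under 1 CPM. The 7 endothelial markers found in the table summed to 3.91 to 6.84 CPM in p53 KO and 4.64 to 6.28 CPM in p53 WT. Among the markers tested, 1 of 7 epithelial was called higher, 1 of 3 leukocyte lower and 0 of 5 endothelial either way. The part of these marker differences in the results below was not tested.

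Of the 10 genes, 4 passed the test between genotypes. MYBL2 and RBL2 were higher in p53 KO cells, LIN52 and RBBP4 were lower, and FOXM1, MYBL1, RBL1, LIN9, LIN37 and LIN54 did not pass. Among all 22352 genes tested, 26.5% passed at an adjusted p under 0.05 (edgeR's quasi-likelihood test), 12.1% higher and 14.4% lower, so 4 of 10 is to be read against that share. The CPM ranges of the genotypes did not overlap for the same 4 genes, and for 40.8% of all genes tested. The median log2 fold change, p53 KO over p53 WT throughout, was 0.16 over the 10 genes and 0.01 over all genes tested. The median size of the change was 0.25 over the 10 genes and 0.40 over all genes. The plot of CPM by library shows the separation of MYBL2, RBL2, LIN52 and RBBP4 and the overlap of the other 6.

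**Figure D1:**
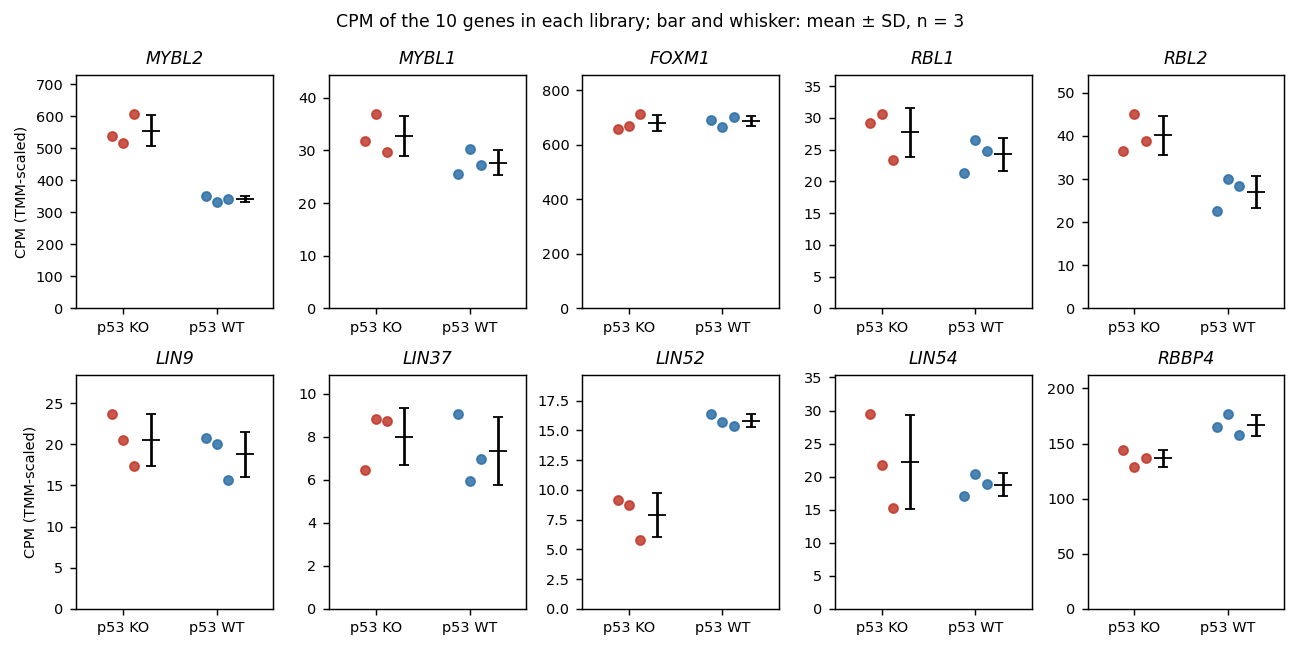
CPM (vertical axes, from 0, scaled by library size and TMM factor) of each of the 10 genes in 3 p53 KO libraries (red) and 3 p53 WT libraries (blue), with mean ± SD beside the points. MYBL2 lies at 516 to 608 CPM in p53 KO and 331 to 352 CPM in p53 WT, while FOXM1 lies at 660 to 715 CPM in p53 KO and 666 to 703 CPM in p53 WT.

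Among the activating partners, MYBL2 changed and FOXM1 did not pass. MYBL2, the MYB family member that joins MuvB in S phase, had 538, 516 and 608 CPM in p53 KO libraries 1 to 3, against 352, 331 and 342 CPM in p53 WT libraries 1 to 3. Every p53 KO library was above every p53 WT library. MYBL2 averaged 554 ± 47.8 CPM in p53 KO cells and 342 ± 10.9 CPM in p53 WT cells (SD, n = 3 each). Its log2 fold change was 0.70 (SE 0.09, 95% interval 0.50 to 0.89), a 1.62-fold higher level, with adjusted p = 7.46e-05 by edgeR. It passed in each of 16 alternative fits, with adjusted p between 1.14e-10 and 0.00172. In bulk RNA, a larger share of cells that express a gene and more of its RNA per cell cannot be told apart.

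FOXM1, the forkhead factor that activates G2 and mitosis genes and is recruited after MYBL2, had 660, 670 and 715 CPM in p53 KO libraries, against 692, 666 and 703 CPM in p53 WT libraries. The ranges overlapped almost fully. The log2 fold change was -0.01 (SE 0.08, adjusted p = 0.943 by edgeR), and its 95% interval ran from -0.19 to 0.17, which does not reach the size seen for MYBL2. Its sign turned to 0.022 with upper-quartile factors and to 0.0087 with no composition factors. In GENCODE 29, 15.9% of the FOXM1 exon bases also belong to ITFG2 on the opposite strand, and the strand setting of the authors' count is not given in the sources used here. ITFG2 had a log2 fold change of 0.01.

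MYBL1 (A-MYB), the relative of MYBL2 best known from the testis, had 31.7, 37.0 and 29.7 CPM in p53 KO libraries and 25.6, 30.3 and 27.2 CPM in p53 WT libraries. The lowest p53 KO library was below the highest p53 WT library. The log2 fold change was 0.25 (SE 0.13, 95% interval -0.03 to 0.53, adjusted p = 0.197 by edgeR).

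The pocket proteins RBL1 and RBL2, which tether E2F4 or E2F5 to MuvB in DREAM, differed in whether they passed. RBL2, the main pocket protein of quiescent cells, had 36.5, 45.2 and 38.8 CPM in p53 KO libraries, against 22.7, 30.0 and 28.3 CPM in p53 WT libraries. All 3 p53 KO values were above all 3 p53 WT values. RBL2 averaged 40.2 ± 4.47 CPM in p53 KO and 27.0 ± 3.79 CPM in p53 WT cells (SD, n = 3 each), with a log2 fold change of 0.58 (SE 0.14, 95% interval 0.28 to 0.87, adjusted p = 0.00649 by edgeR). It kept its call without any 1 library, with adjusted p between 0.00389 and 0.0378. In GENCODE 29, 8.3% of its exon bases are shared with AKTIP on the opposite strand, and AKTIP was higher too (log2 fold change 0.68, adjusted p = 0.00763 by edgeR).

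RBL1, the pocket protein that is itself an E2F target and accumulates in cycling cells, had 29.2, 30.7 and 23.4 CPM in p53 KO libraries and 21.4, 26.6 and 24.8 CPM in p53 WT libraries. The ranges overlapped, and p53 KO replicate 3 fell within the p53 WT range. The log2 fold change was 0.20 (SE 0.14, 95% interval -0.11 to 0.51, adjusted p = 0.352 by edgeR). A call for RBL2 and none for RBL1 does not show that they differ, and the difference itself was compared as their ratio within each library, given below.

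Within the MuvB core, 2 of 5 subunits were lower and 3 did not pass. LIN52, the small subunit whose phosphorylation by DYRK1A allows the pocket protein to bind, had 9.14, 8.71 and 5.81 CPM in p53 KO libraries, against 16.4, 15.7 and 15.4 CPM in p53 WT libraries. The groups were far apart, and p53 KO replicate 3, the library with the fewest reads, was the lowest. LIN52 averaged 7.89 ± 1.81 CPM in p53 KO and 15.8 ± 0.562 CPM in p53 WT cells (SD, n = 3 each), with a log2 fold change of -0.99 (SE 0.19, 95% interval -1.40 to -0.58, adjusted p = 0.00134 by edgeR). It kept its call without any 1 library (-1.11 to -0.81, adjusted p between 0.00187 and 0.00787).

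RBBP4, a histone-binding WD40 protein that also serves in other chromatin complexes, had 144, 129 and 137 CPM in p53 KO libraries and 165, 177 and 158 CPM in p53 WT libraries. The ranges did not overlap, but they lay close. The log2 fold change was -0.28 (SE 0.09, 95% interval -0.49 to -0.08), with adjusted p = 0.0392 by edgeR. This call was lost without any of the 6 libraries in turn (p53 KO replicates 1, 2 and 3 and p53 WT replicates 1, 2 and 3; adjusted p between 0.051 and 0.195), and with upper-quartile factors (adjusted p = 0.0728) or none (adjusted p = 0.0513). In GENCODE 29, 18.0% of its exon bases are shared with SYNC on the opposite strand, and its 6 pseudogene copies in the table had at most 263 counts in a library, where RBBP4 had at least 2740.

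LIN9, the scaffold subunit, had 23.7, 20.5 and 17.3 CPM in p53 KO and 20.7, 20 and 15.6 CPM in p53 WT libraries (log2 fold change 0.13, 95% interval -0.22 to 0.47). LIN37, a subunit needed for repression by DREAM, had 6.47, 8.83 and 8.72 CPM in p53 KO and 9.07, 5.94 and 6.98 CPM in p53 WT libraries (log2 fold change 0.12, 95% interval -0.36 to 0.59). LIN54, the DNA-binding subunit, had 29.5, 21.8 and 15.3 CPM in p53 KO and 17.0, 20.4 and 18.9 CPM in p53 WT libraries (log2 fold change 0.26, 95% interval -0.16 to 0.68). The genotypes overlapped for all 3 subunits, with adjusted p = 0.632, 0.759 and 0.39 by edgeR for LIN9, LIN37 and LIN54. LIN54 varied between p53 KO libraries, with replicate 1 highest and replicate 3 lowest. It passed without p53 KO replicate 3 (0.47, adjusted p = 0.0352 by edgeR; adjusted p 0.0352 to 0.99 over all 16 alternatives) and turned to -0.0044 without p53 KO replicate 1. LIN37 turned to -0.0195 without p53 WT replicate 2, and 41.8% of its exon bases are shared with an antisense entry and 26.7% with another protein-coding entry on its own strand in GENCODE 29.

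Of the 4 called genes, LIN52 (chromosome 14), RBL2 (chromosome 16) and RBBP4 (chromosome 1) had log2 fold changes close to the median of the genes around them, and MYBL2 (chromosome 20) did not. For each gene the median log2 fold change of the 50 nearest protein-coding genes tested was taken, with RefSeq gene order. This median had the same sign as the gene itself in 10 of 10 cases. The share of all genes with a position for which this holds was not computed. FOXM1, LIN37 and LIN54 also changed sign when 1 library was left out. Around LIN52 the median was -0.93, against -0.99 for LIN52, and 35 of the 50 neighbours were called lower and 0 higher. Of the 4 nearest, ABCD4 and NPC2 on one side had -1.15 and -0.90 and were called, and ALDH6A1 and CCDC176 on the other had -0.44 and -0.45 and were not (adjusted p = 0.0966 and 0.188 by edgeR). Around RBL2 the median was 0.66, against 0.58 for RBL2, with 30 of 50 neighbours called higher and 2 lower. Directly beside RBL2, AKTIP had 0.68 and CHD9 -0.08. Around RBBP4 the median was -0.35, against -0.28 for RBBP4, with 19 of 50 called lower and 3 higher.

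MYBL2 lay above the median of its surroundings. The median of its 50 neighbours was 0.09 (quartiles -0.08 and 0.63), against 0.70 for MYBL2, and some of them lay above MYBL2. Of the 50, 11 were called higher and 2 lower. Single neighbours varied: directly beside MYBL2, TOX2 had 0.68 (adjusted p = 0.0226 by edgeR) and IFT52 had 0.10 (adjusted p = 0.596 by edgeR). When each local median was taken off before the test, 25.4% of the 14650 genes with a position passed, and of the 10 genes MYBL2 alone passed, with 0.61 (adjusted p = 0.000351 by edgeR). LIN52 then had -0.06 (adjusted p = 0.867), RBL2 -0.08 (adjusted p = 0.745) and RBBP4 0.08 (adjusted p = 0.604), so the sign of RBL2 and RBBP4 turned. The other 6 lay between -0.05 and 0.09. The local median was estimated from the same libraries, and its own error is not part of these p-values. The median size of the change was then 0.07 over the 10 genes and 0.28 over all genes with a position. The plot of log2 fold changes beside those of neighbours, and the plot by gene order, show LIN52, RBL2 and RBBP4 near the median of their 50 neighbours and MYBL2 above it.

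**Figure D2:**
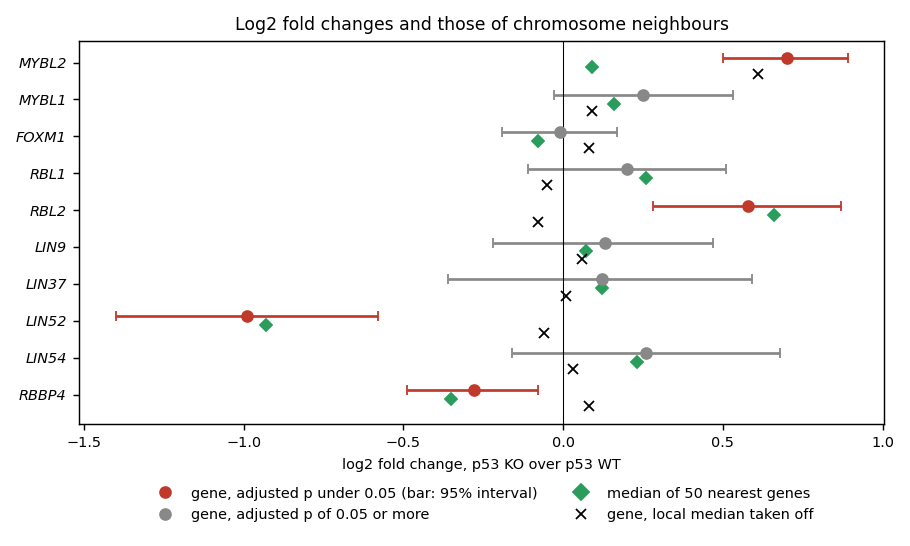
Log2 fold change (p53 KO over p53 WT) of each gene with its 95% interval (circles, red where adjusted p is under 0.05), the median of its 50 nearest genes (diamonds) and its value after that median was taken off (crosses). The cross of MYBL2 is at 0.61 and the crosses of the other 9 genes lie within 0.09 of 0.

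**Figure D3:**
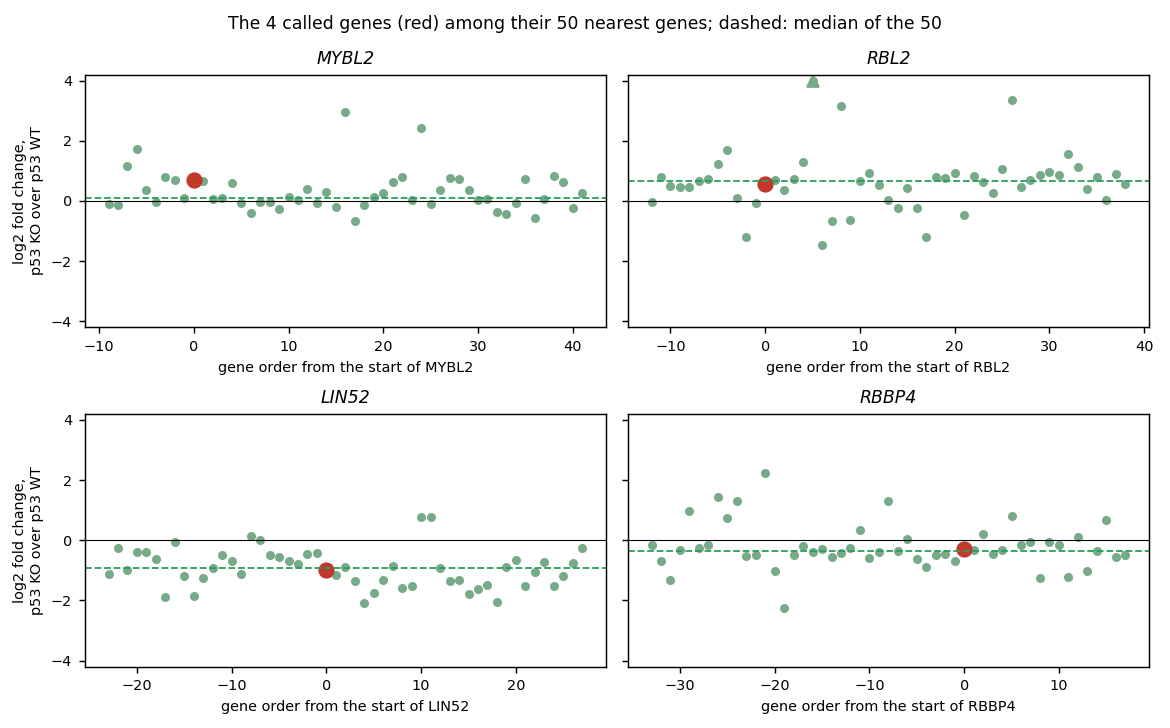
Log2 fold change (vertical axis, p53 KO over p53 WT) of the 50 nearest genes in gene order around MYBL2, RBL2, LIN52 and RBBP4 (large red points at 0); the dashed line is the median of the 50, and a triangle is a value beyond the axis. The medians are 0.09, 0.66, -0.93 and -0.35.

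Levels between genes were set side by side per kilobase of merged GENCODE 29 exon. That length (2.777 kb for MYBL2 and 4.899 kb for FOXM1) is not transcript length, and the annotation behind the counts is not given. The order of genes depends on it: before division by length, FOXM1 had more counts than MYBL2 in every library. In p53 KO cells MYBL2 ranked first with 200 ± 17.2 CPM per kb and FOXM1 second with 139 ± 5.97. In p53 WT cells FOXM1 ranked first with 140 ± 3.89 CPM per kb and MYBL2 second with 123 ± 3.93 (SD, n = 3 each). The ranges of the pair did not overlap in either genotype. RBBP4 followed in both, at 14.4 ± 0.826 CPM per kb in p53 KO and 17.6 ± 0.996 in p53 WT cells, clear of the genes above and below it. The other 7 genes lay between 2.14 and 5.49 CPM per kb in p53 KO and between 2.60 and 4.29 in p53 WT cells, and most neighbours in that order overlapped. LIN52 was last of the 10 in p53 KO cells, at 2.14 ± 0.491 CPM per kb, and in place 4 in p53 WT cells, at 4.29 ± 0.152. RBL2 held place 4 in p53 KO cells, at 5.49 ± 0.611, and place 8 in p53 WT cells, at 3.69 ± 0.518.

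Ratios of 2 genes within a library need no scaling between libraries. MYBL2 had 0.816, 0.771 and 0.85 counts per FOXM1 count in p53 KO libraries, against 0.509, 0.497 and 0.487 in p53 WT libraries. The ratio of RBL2 to RBL1 was 1.25, 1.47 and 1.66 in p53 KO and 1.06, 1.13 and 1.14 in p53 WT libraries. LIN52 had 0.386, 0.426 and 0.336 counts per LIN9 count in p53 KO and 0.795, 0.785 and 0.984 in p53 WT libraries. MYBL2 had 17.0, 13.9 and 20.5 counts per MYBL1 count in p53 KO and 13.8, 10.9 and 12.6 in p53 WT libraries. None of these 4 ratios overlapped between genotypes, and each had p = 0.10 by a two-sided exact permutation test over the 6 libraries (0.10 also after Benjamini-Hochberg adjustment over the 4). That is the smallest p that 3 against 3 libraries allow. Each ratio set a called gene over a gene that did not pass, so its separation is not independent of the calls above. The share of other gene pairs without overlap was not computed, and for single genes tested it was 40.8%.

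The partners and regulators of DREAM were a list of 18 genes, chosen with earlier results of these data known. All were tested, and 4 were higher and 2 lower, with a median of 0.11. That is 33.3% called, beside 26.5% over all genes, and 16.7% once the neighbour median was subtracted, beside 25.4%. TFDP2, a dimer partner of E2F factors, rose most: it averaged 62.0 ± 3.17 CPM in p53 KO and 20.9 ± 1.39 CPM in p53 WT cells (SD, n = 3 each), with 1.56 (SE 0.11) on the log2 scale and 0.78 (adjusted p = 0.000174 by edgeR) once the neighbour median was subtracted. CDK2, a kinase that phosphorylates pocket proteins, averaged 108 ± 1.25 CPM in p53 KO and 75.4 ± 0.298 CPM in p53 WT cells, and kept its call in the same way (0.52, then 0.35 with adjusted p = 0.0134 by edgeR). E2F4, the E2F that binds the pocket proteins of DREAM, averaged 99.9 ± 6.80 CPM in p53 KO and 66.0 ± 5.09 CPM in p53 WT cells. Its log2 fold change of 0.60 stood beside a neighbour median of 0.70 and became -0.09 (adjusted p = 0.573 by edgeR) after that median was taken off. RBBP7, the close paralogue of RBBP4, rose by 0.29, a call lost without p53 KO replicate 2 or p53 WT replicate 1, 2 or 3 (adjusted p = 0.0621 to 0.102), with no filter (0.0789) and once the neighbour median was subtracted (0.20, adjusted p = 0.126).

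On the lower side of this list were CDKN1A, given above, and CCND1, cyclin D1. CCND1 fell by 0.28 on the log2 scale (adjusted p = 0.0406 by edgeR), and the call was lost without p53 KO replicate 1, 2 or 3 or p53 WT replicate 2 or 3 (adjusted p = 0.0682 to 0.172), and with upper-quartile factors (0.0735) or none (0.0602). E2F5 had -0.05 (95% interval -0.35 to 0.25), and TFDP1, the other E2F dimer partner, had 0.21 (95% interval 0.01 to 0.41, adjusted p = 0.126 by edgeR). E2F5 turned positive without p53 KO replicate 2 or p53 WT replicate 1 (0.0134 and 0.0552). DYRK1A, the kinase of LIN52, had 20.4 ± 1.34 CPM in p53 KO and 15.6 ± 3.06 CPM in p53 WT cells (log2 fold change 0.40, adjusted p = 0.088 by edgeR), and passed by limma-voom (0.48, adjusted p = 0.0223) and without p53 WT replicate 3 (0.56, adjusted p = 0.032; 0.0223 to 0.722 over all 16 alternatives). Once the neighbour median was subtracted, 2 of the 18 were higher (TFDP2 and CDK2) and 1 lower (CDKN1A).

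The listed genes that MuvB activates with MYBL2 and FOXM1 were more often called higher than lower. The list was chosen with earlier results of these data known, so its shares describe the listed genes only. Of 75 G2 and mitosis genes in the list, all tested, 23 rose, 7 fell and 45 did not pass, with a median of 0.17 beside 0.01 over all genes tested. That is 30.7% higher and 9.33% lower, beside 12.1% and 14.4% over all genes. PRC1, which bundles the microtubules of the central spindle, averaged 258 ± 12.7 CPM in p53 KO and 117 ± 10.8 CPM in p53 WT cells. CCNB1, cyclin B1, averaged 558 ± 8.67 and UBE2C, the ubiquitin-conjugating enzyme of the anaphase-promoting complex, 174 ± 10.4 CPM in p53 KO cells, against 336 ± 10.3 and 102 ± 1.70 CPM in p53 WT cells. SHCBP1 averaged 104 ± 12.8 CPM in p53 KO and 46.4 ± 1.23 CPM in p53 WT cells (SD, n = 3 for each). These 4 rose by 1.14, 0.73, 0.77 and 1.17 on the log2 scale.

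The members of this list that fell and that are named here lay among lower neighbours. DLGAP5, a spindle protein, averaged 108 ± 14.2 CPM in p53 KO and 179 ± 3.42 CPM in p53 WT cells (log2 fold change -0.73), with a neighbour median of -0.68. GTSE1, which binds p53 in G2, had -0.58 with a neighbour median of -0.46. SKA1 and MELK had -0.38 and -0.31, with neighbour medians of -0.52 and -0.25. None of the 4 passed once the neighbour median was subtracted (adjusted p = 0.806, 0.491, 0.373 and 0.748 by edgeR for DLGAP5, GTSE1, SKA1 and MELK), and SKA1 turned to 0.15. SKA1 also lost its call without p53 KO replicate 2 or p53 WT replicate 1 or 2, and MELK without p53 KO replicate 2 or 3 or any 1 p53 WT replicate. With the local median off, 23 of the 75 were higher and 1 lower, and 15 of the first 23 and 0 of the 7 kept their call. This was 32% called, beside 25.4% of the 14650 genes with a position, of which 1810 were higher and 1912 lower. CCNB1, UBE2C, PRC1 and SHCBP1 were among those kept, at 0.70, 0.72, 0.61 and 0.62. The count of calls was 30, but 16 without p53 WT replicate 2 and 19 without p53 WT replicate 3.

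The listed genes of the G1/S transition and replication, which DREAM holds down through its E2F arm, showed a like split. This list too was chosen with earlier results of these data known. Of 69, all tested, 23 rose, 6 fell and 40 did not pass, with a median of 0.19. The shares were 33.3% higher and 8.7% lower, beside 12.1% and 14.4% over all genes. MCM2 and MCM7, subunits of the replicative helicase, averaged 311 ± 8.15 and 433 ± 47.1 CPM in p53 KO cells, against 167 ± 8.44 and 265 ± 17.2 CPM in p53 WT cells (SD, n = 3 each). GINS2 and GINS3, subunits of the GINS complex that works with this helicase, had log2 fold changes of 1.12 and 0.83, in surroundings with medians of 0.55 and 0.67. After those were taken off GINS2 had 0.58 (adjusted p = 0.00293 by edgeR) and GINS3 0.17 (adjusted p = 0.313 by edgeR). MCM2 and MCM7 kept 0.58 and 0.63 (adjusted p = 0.000305 and 0.000592 by edgeR).

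RRM2, the small subunit of ribonucleotide reductase, fell by 0.54 on the log2 scale, POLE2 by 0.76, WDHD1 by 0.79 and E2F7, a repressing E2F, by 0.56. Their neighbour medians were -0.42, -0.64, -0.66 and -0.14. Once the neighbour median was subtracted RRM2, POLE2 and WDHD1 did not pass (adjusted p = 0.39, 0.581 and 0.554 by edgeR), while E2F7 did, with -0.41 (adjusted p = 0.035 by edgeR; 3.57e-05 to 0.035 over 16 alternatives). In that fit 17 of the 69 were higher and 3 lower, of which 12 and 1 had the same call before. The share called there was 29%, near the 25.4% of all genes with a position, of which 1810 were higher and 1912 lower. The count of calls was 29, and 19 without p53 WT replicate 2. The plot by gene list shows both target lists centred just above 0, with CDKN1A as the lowest point.

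**Figure D4:**
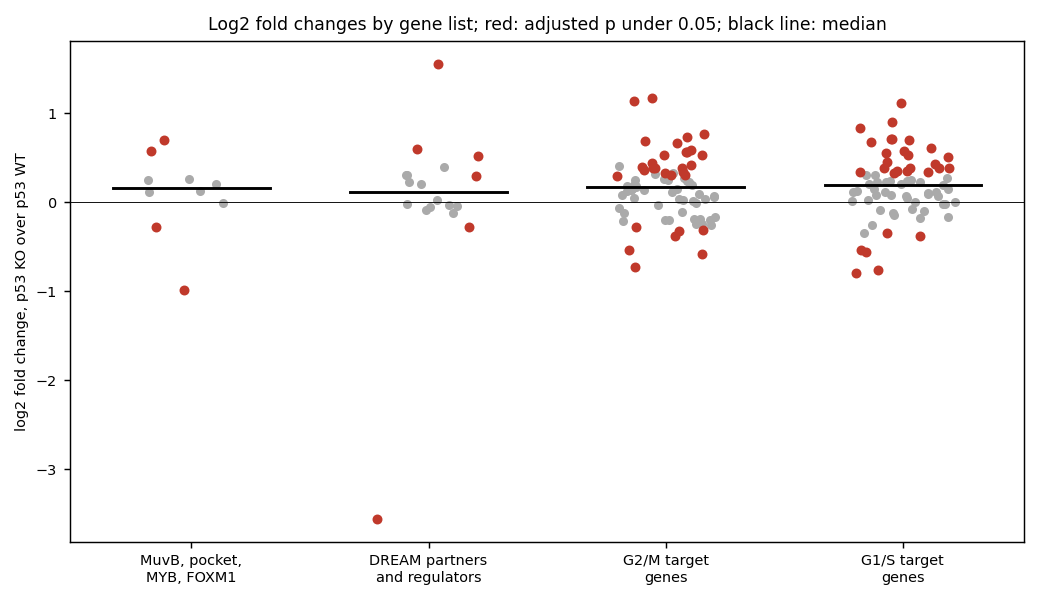
Log2 fold change (p53 KO over p53 WT) of every gene of the 10 described and of the 3 lists of 18, 75 and 69 genes; red points had an adjusted p under 0.05 and the black line is the median. The medians are 0.16, 0.11, 0.17 and 0.19, and the lowest point is CDKN1A at -3.56.

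The authors' deposited table gives log2 fold changes as p53 WT over p53 KO, read from the sign of CDKN1A (3.54). The test score in the authors' deposited table has the opposite sign to the fold change in all 35987 rows, so the direction rests on the fold change column and CDKN1A. In the authors' deposited table MYBL2 had -0.72 (SE 0.08), RBL2 -0.60 (SE 0.20), LIN52 0.96 (SE 0.18) and RBBP4 0.26 (SE 0.09), and these were the 4 of the 10 with an adjusted p under 0.05. The same table marks genes that intersect a p53 cistrome, a set of sites bound by p53. It marked 124 of 35987 genes, all of them with adjusted p under 0.05 and higher in p53 WT. Of the 10 genes described, 0 were marked in the authors' deposited table, and of the 162 listed partner and target genes 1 was, CDKN1A. Since every marked gene was called and higher in p53 WT, genes outside that set may not have been open to a mark. Of the 10, only LIN52 and RBBP4 lay in that set. A missing mark is thus not a measured absence of p53 binding.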

How the data were processed

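The authors deposited raw counts per gene symbol for 6 libraries, and all columns of samples were used. The submitters' processing notes name GRCh37 (hg19), DESeq2 1.3.6, HISAT2 2.1.0 and fastp 0.21.0. For the counting tool, annotation and strand setting, nothing is stated in these sources. The authors' deposited comparison gives each gene's mean normalised signal, its log2 fold change and SE, a test score, p-values before and after adjustment, and a p53 cistrome mark.

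Groups and replicate numbers came from the sample titles. The main test was that of edgeR 4.0.16 under R 4.3.3 (quasi-likelihood F-test, robust, TMM factors, filterByExpr, 22352 genes, Benjamini-Hochberg over all of them). All 10 members passed the filter. SE is the size of the fold change over the square root of F. The test was checked on simulated counts. Alternatives were RLE, upper-quartile or no factors, no filter or 1 CPM in 3 libraries, DESeq2 1.42.0, limma-voom (limma 3.58.1), the replicate block, a threshold of 0.01, each library left out, and the median of 50 neighbouring genes (order from RefSeq on GRCh38.p14) taken off as an offset.

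The members and lists were chosen with earlier results of these data known, and the E2F letters with the promoters in view. The text names all members, CDKN1A, E2F4, E2F5, TFDP1, TFDP2, DYRK1A and, of each list, up to 4 genes with the smallest adjusted p in each direction. Neighbours and overlapping genes were named by position, after values were seen. Some items the naming rule covers are not reported here.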

Additional observations from a re-analysis of the deposited data

How the results depend on the processing

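Of 576 single-gene values (36 genes under 16 alternatives), 507 kept direction and side of the threshold. With the local median taken off, 3722 of 14650 genes were called (5925 of 22352 otherwise, on fewer genes), 1 of the 10 members (4 otherwise) and 3 of the DREAM partners (6 otherwise). In that fit the sign turned for FOXM1 (0.075), RBBP4 (0.0781), RBL1 (-0.0455), RBL2 (-0.0757), E2F4 (-0.0931), E2F5 (0.265) and SKA1 (0.148). At an adjusted p under 0.01, 3758 genes, 15 G2/M and 16 G1/S genes were called (30 and 29 otherwise). Leaving out 1 library gave 4160 to 6059 genes, 3 to 4 members, 4 to 7 partners, 16 to 35 G2/M and 19 to 32 G1/S genes. Signs also turned for FOXM1 (0.0223 with upper-quartile factors, 0.0087 with none, and between -0.036 and 0.0128 with 1 library left out), LIN37 (-0.0195 to 0.298), LIN54 (-0.0044 to 0.469) and E2F5 (-0.166 to 0.0552) with 1 library left out. The cause of these turns was not tested.

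Replicate numbers showed no clear pairing of the samples: deviations of same-numbered libraries correlated at 0.0098, 0.078 and -0.125 over 17025 genes. Only p53 WT replicate 2 correlated best with its own number. The largest values were 0.221 (p53 KO replicate 3 with p53 WT replicate 1) and 0.194 (p53 KO replicate 2 with p53 WT replicate 3). A pairing under other numbers was not tested. With the replicate block 5159 genes, 3 members, 4 partners, 20 G2/M and 24 G1/S genes were called, and RBBP4, RBBP7, CCND1 and MELK lost their call (adjusted p = 0.0915, 0.0689, 0.0962 and 0.0684 by edgeR). Of the 36 genes refitted, no other changed its call under the block. Among the members LIN37 had the largest SE (0.22), followed by LIN54 (0.20) and LIN52 (0.19).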
